A study of Mus musculus with 36 samples.

Results

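The sarcomeric myosin heavy chains (MyHC) analysed here were the products of 8 genes, *Myh1*, *Myh2*, *Myh3*, *Myh4*, *Myh6*, *Myh7*, *Myh7b* and *Myh8*, chosen by gene name from the 55416 genes of the count matrix. All 8 passed the filter on low counts that 13995 genes passed. Expression was measured by RNA-seq of poly-A RNA in 36 libraries of C2C12 myotubes, the multinucleate cells that this mouse myoblast line forms when it differentiates. All cultures received an antisense locked nucleic acid (LNA) on day 3 of differentiation, either a negative control (control) or an LNA against the long noncoding RNA *Tug1* (*Tug1* KD). On day 4 the myotubes were left unstimulated (Rest) or were contracted by electrical pulse stimulation (EPS) for 3 h, with pulses of 2 ms and 13 V at 66 Hz, alternating 5 s of pulses with 5 s of pause, and were lysed at the end of EPS (EPS 0h) or 3 h later (EPS 3h).

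This gave 6 groups of 6 libraries, namely Rest control, Rest *Tug1* KD, EPS 0h control, EPS 0h *Tug1* KD, EPS 3h control and EPS 3h *Tug1* KD. The control groups also carried an LNA, so no group was free of transfection. C2C12 is a clonal line with no nerve supply, each library came from a culture well, and the wells came from 2 independent experiments. Libraries held 17005079 to 24181167 counts on genes. Levels are given as RPM, a gene's counts scaled to a fixed library size corrected by TMM factors, log2FC values carry their standard error (SE), and false discovery rates (FDR) are those of the edgeR quasi-likelihood test adjusted over all 13995 genes with a threshold of 0.05.

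Myosin heavy chain is the motor protein of the thick filament. A muscle fibre is classed by the heavy chain it makes, because the isoforms hydrolyse ATP and shorten at different rates. *Myh3* encodes the embryonic and *Myh8* the perinatal isoform, both of which are made early in development and again in regenerating muscle. *Myh1*, *Myh2* and *Myh4* encode the adult fast isoforms IIx, IIa and IIb, with IIb the fastest. *Myh7* encodes the slow isoform of type I fibres, which is also the beta isoform of the heart, *Myh6* encodes the alpha cardiac isoform, and *Myh7b* encodes a slow-tonic isoform. C2C12 myotubes are known to make mainly developmental isoforms.

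The genes lie in 3 places of the mouse genome (GRCm39). The developmental and fast genes follow each other on the plus strand of chromosome 11, with *Myh3* (ENSMUSG00000020908) at chr11:66969126-66993117, *Myh2* (ENSMUSG00000033196) at chr11:67061838-67088989, *Myh1* (ENSMUSG00000056328) at chr11:67089132-67116631, *Myh4* (ENSMUSG00000057003) at chr11:67128336-67151274 and *Myh8* (ENSMUSG00000055775) at chr11:67167746-67199462. The cardiac pair lies on the minus strand of chromosome 14, with *Myh6* (ENSMUSG00000040752) at chr14:55179367-55205887 and *Myh7* (ENSMUSG00000053093) at chr14:55208141-55232084. *Myh7b* (ENSMUSG00000074652) stands alone on the plus strand at chr2:155453096-155476234.

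The 250 bases upstream of each RefSeq transcription start were compared to see which members share promoter sequence. The RefSeq table (GRCm38.p6) holds all 8 members, and its windows were placed on GRCm39 by exact match. A run of 14 bases, TTCTAATTATATCC, was present in the windows of *Myh1*, *Myh2*, *Myh4* and *Myh8*, and in no other of the 32851 mouse windows searched on both strands (4 windows, 0.0122%). The 30 bases around it are shown on the plus strand with the shared run in capitals, from chr11:67090760-67090789 (*Myh1*), chr11:67061720-67061749 (*Myh2*), chr11:67128472-67128501 (*Myh4*) and chr11:67167888-67167917 (*Myh8*).
Myh1: gggaatatTTCTAATTATATCCaaacatcc
Myh2: aaaaatatTTCTAATTATATCCaaccattc
Myh4: agaaatatTTCTAATTATATCCattcacag
Myh8: atgaatacTTCTAATTATATCCgaagatgc
The run began at positions -160, -125, -158 and -54 from the RefSeq start of *Myh1*, *Myh2*, *Myh4* and *Myh8*. A second run, TCAAATTAT, stood further upstream in the windows of those 4 genes and in 57 windows in all (0.174%). GENCODE places the first exon of some transcripts of these genes further upstream than RefSeq does.

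The window of *Myh3*, the member with the highest level, held neither run and is shown for contrast. It covers chr11:66968876-66969125 on the plus strand, and its capitals mark the motif TATAAA, which began at position -29.
Myh3: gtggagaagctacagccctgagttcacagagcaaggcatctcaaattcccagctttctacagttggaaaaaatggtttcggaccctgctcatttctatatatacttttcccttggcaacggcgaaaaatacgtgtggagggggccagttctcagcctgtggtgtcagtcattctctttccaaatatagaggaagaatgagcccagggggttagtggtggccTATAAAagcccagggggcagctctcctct
TATAAA on either strand was present in 12.4% of all windows and in those of 4 members (*Myh1*, *Myh3*, *Myh4* and *Myh8*). The E-box CANNTG was present in 66.2% of all windows and in those of 6 members. These matches describe letters in a window, and no binding was measured.

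*Myh3* was the most abundant heavy chain in every library. Divided by the length of the canonical transcript (5954 to 7546 bp), its level averaged 707.3 RPM per kb over the 36 libraries, against 202.1 RPM per kb for *Myh1* (IIx) and 63.95 RPM per kb for *Myh8* (perinatal). *Myh4* (IIb) averaged 28.89 and *Myh7* (slow) 18.46 RPM per kb. *Myh2* (IIa) averaged 7.422, *Myh7b* 3.656 and *Myh6* 2.401 RPM per kb. The order *Myh3* over *Myh1* over *Myh8* over *Myh4* held in 36 of 36 libraries at each step, and *Myh3* exceeded *Myh1* by 2.816-fold to 4.278-fold per kb. *Myh7* also exceeded *Myh2* in 36 of 36 libraries. *Myh4* exceeded *Myh7* in only 26 of 36, *Myh2* exceeded *Myh7b* in 35 of 36, and *Myh7b* exceeded *Myh6* in 30 of 36. The lowest count of any member in any library was 81, for *Myh6*.

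**Figure D1:**
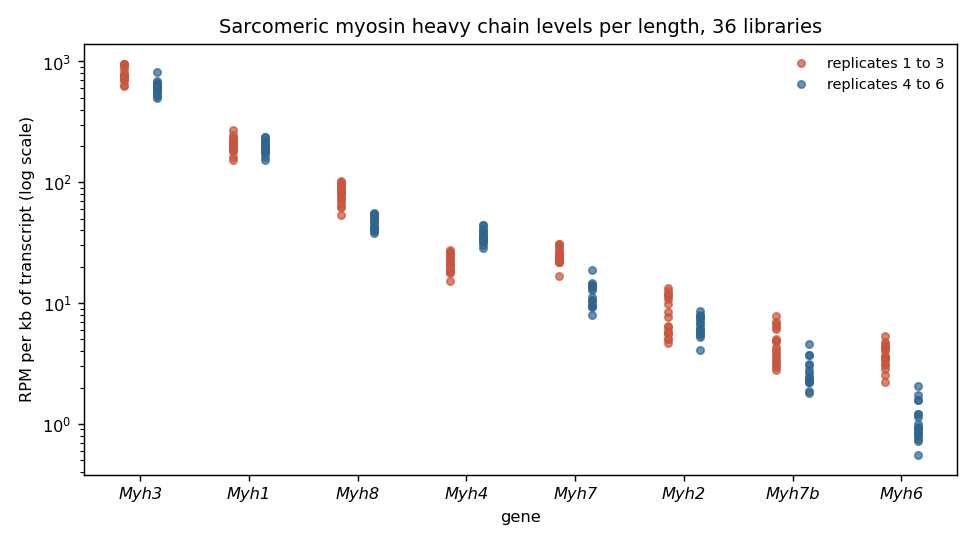
Level of each MyHC gene in each of the 36 libraries in RPM per kb of canonical transcript on a log scale, with replicates 1 to 3 in red and replicates 4 to 6 in blue, drawn side by side. *Myh3* averaged 707.3 and *Myh6* 2.401 RPM per kb, and the replicate sets separate for *Myh6* and *Myh4* in opposite directions.

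Within every group, replicates 1 to 3 and replicates 4 to 6 stood apart in their MyHC makeup. The labels do not name these sets, which were drawn from earlier results on these libraries, and which experiment each came from is not stated in the sources used here. *Myh6* was 2.364-fold to 4.16-fold higher in replicates 1 to 3 across the 6 groups, *Myh7* 1.789-fold to 2.613-fold, *Myh8* 1.549-fold to 1.967-fold and *Myh7b* 1.422-fold to 2.122-fold. *Myh4* went the other way, with a ratio of 0.5034 to 0.696. For these 5 genes no library of replicates 1 to 3 overlapped replicates 4 to 6 in any of the 6 groups. The share of all genes that parted between the sets was not counted, so this is not shown to be particular to the heavy chains.

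The remaining members parted less. *Myh3* was separate in 5 of 6 groups (1.076-fold to 1.639-fold higher in replicates 1 to 3) and *Myh1* in 3 of 6 (0.8649-fold to 1.274-fold). *Myh2* parted in 2 of 6, both of them at Rest, where its ratio was 2.277 in control and 1.454 in *Tug1* KD. Because the sets part, the comparisons of *Tug1* KD with control and of EPS with Rest are given without and with a term for the set in the model.

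**Figure D2:**
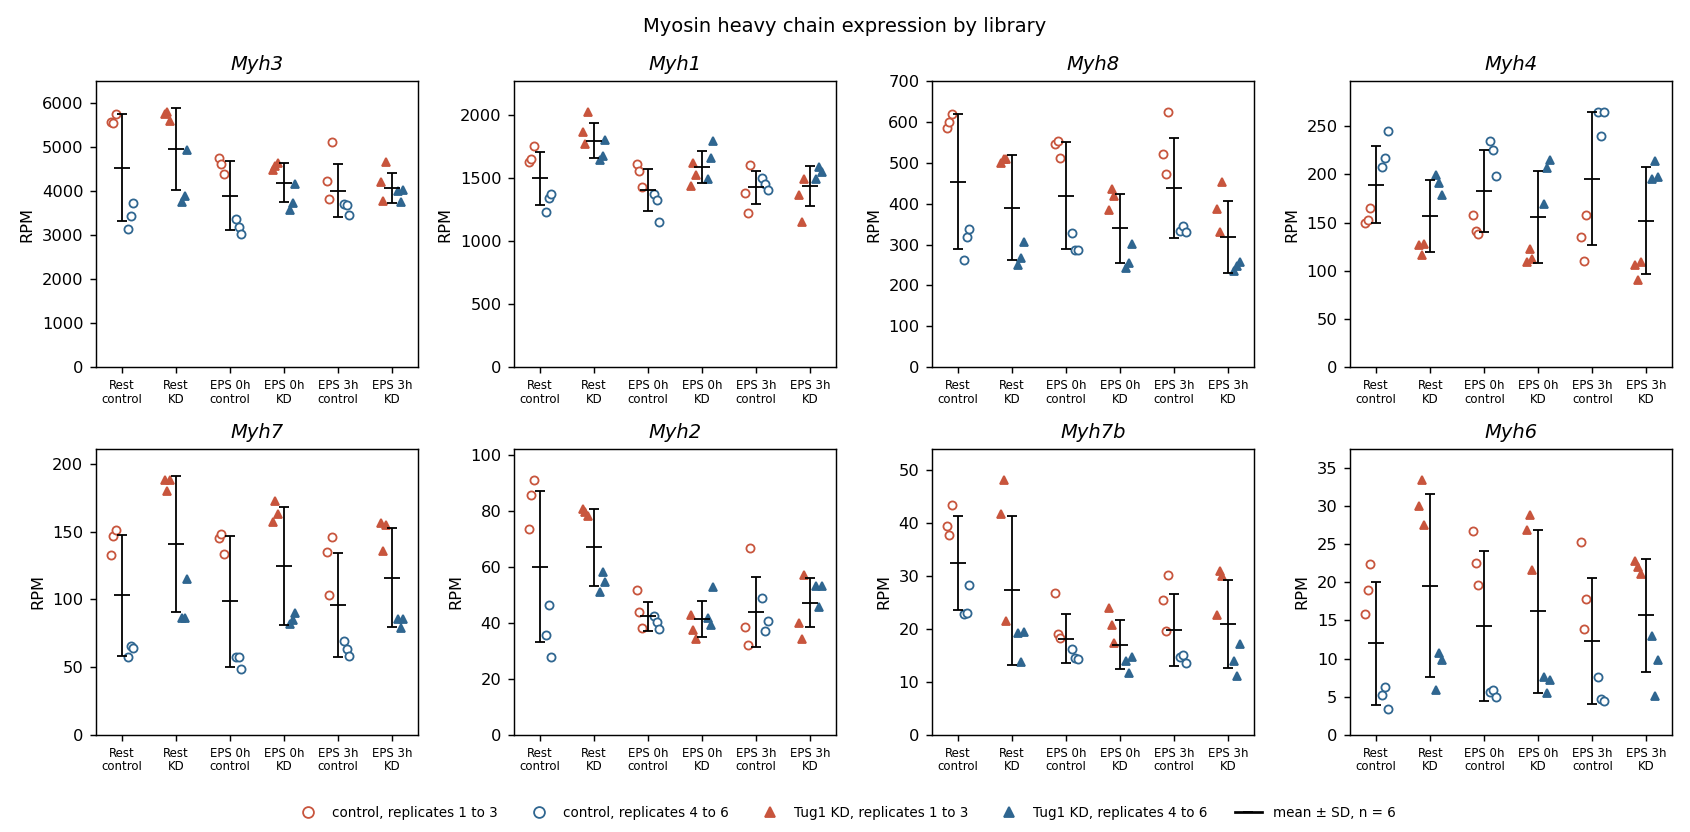
Level of each MyHC gene in RPM in every library by group, with circles for control and triangles for *Tug1* KD, red for replicates 1 to 3 and blue for replicates 4 to 6, and bars for the mean ± SD (n = 6). Each panel has its own axis from 0. The red and blue points of *Myh8*, *Myh4*, *Myh7*, *Myh7b* and *Myh6* do not overlap within any group.

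Summed over the 8 genes, MyHC took 0.7333% ± 0.1849 of all counts in Rest control (SD, n = 6) and 0.7922% ± 0.1296 in Rest *Tug1* KD. The share was 0.6123% ± 0.1024 and 0.6388% ± 0.05508 at EPS 0h in control and *Tug1* KD, and 0.5886% ± 0.06553 and 0.5771% ± 0.04097 at EPS 3h. In control replicates 1 to 3 the summed level averaged 8340.6 RPM at Rest, 7033.7 RPM at EPS 0h and 6680.8 RPM at EPS 3h. The corresponding means of control replicates 4 to 6 were 5402.3, 5113.3 and 5786.3 RPM. Thus the sum was lower after EPS in replicates 1 to 3 of the control. In replicates 4 to 6 the libraries of both EPS groups overlapped those of Rest (4953.5 to 5811.0 RPM at Rest, 4774.9 to 5422.9 at EPS 0h and 5566.9 to 5945.2 at EPS 3h). In *Tug1* KD the means in the same order were 8559.8, 6858.1 and 6281.5 RPM in replicates 1 to 3. In replicates 4 to 6 they were 6531.4, 6083.0 and 6063.8 RPM, with overlapping libraries. In these bulk samples, fewer myotubes in a well and less MyHC RNA per myotube cannot be told apart.

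The target of the LNA was lower in each *Tug1* KD group. At Rest, *Tug1* ranged from 38.63 through a median of 47.78 to 58.32 RPM in control and from 23.97 through 25.42 to 33.32 RPM in *Tug1* KD, with no overlap. Its log2FC was -0.83 ± 0.17 at Rest (FDR 0.000915), -0.57 ± 0.17 at EPS 0h (FDR 0.0178) and -0.51 ± 0.17 at EPS 3h (FDR 0.0414). After EPS the groups overlapped, with 55.05 to 80.63 RPM in control against 29.47 to 61.9 RPM in *Tug1* KD at EPS 0h and 54.62 to 107.0 against 40.01 to 84.56 RPM at EPS 3h.

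*Tug1* KD was compared with control at each time point to ask whether the knockdown altered the heavy chains. In the model of the 6 groups alone, 0 of 8 members passed the FDR threshold at Rest, where 10.0% of all genes did, 0 of 8 at EPS 0h (14.3% of all genes), and 0 of 8 at EPS 3h (11.5%). At an unadjusted p under 0.05 the count was 1 member at Rest (*Myh1*), 0 at EPS 0h and 0 at EPS 3h, DESeq2 called 1 member at Rest and 0 at EPS 0h and EPS 3h, and limma-voom called 0 at each time point. The median log2FC of the 8 members was 0.14 at Rest, 0.04 at EPS 0h and 0.05 at EPS 3h, beside -0.03, -0.0025 and -0.01 over all tested genes.

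With the term for the replicate set, the slow gene *Myh7* was higher and the fast IIb gene *Myh4* lower in *Tug1* KD at all 3 time points, and the perinatal gene *Myh8* was lower after EPS. The test then called 4 of 8 members at Rest (15.9% of all genes), 3 of 8 at EPS 0h (22.7%) and 3 of 8 at EPS 3h (18.7%). With the replicate number as a block, the calls were the same 3 members at EPS 0h (24.3% of all genes) and the same 3 at EPS 3h (20.6%). Thus these calls were made only in models that held the set or the replicate number, or within a set, apart from the single DESeq2 call.

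*Myh7*, the gene of the slow isoform, ranged from 57.64 through a median of 99.34 to 151.0 RPM in Rest control and from 86.55 through 147.8 to 188.5 RPM in Rest *Tug1* KD. The 12 libraries overlapped, but within replicates 1 to 3 (133.1 to 151.0 RPM in control, 180.4 to 188.5 RPM in *Tug1* KD) and within replicates 4 to 6 (57.64 to 65.54 against 86.55 to 115.2 RPM) they did not. The log2FC was 0.45 ± 0.32 without the set term (FDR 0.468) and 0.49 ± 0.09 with it (FDR 0.000121).

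At EPS 0h the *Tug1* KD and control libraries of *Myh7* were again apart in both sets, with 133.9 to 148.2 RPM in control and 156.9 to 172.5 RPM in *Tug1* KD in replicates 1 to 3, and 48.73 to 57.57 against 82.0 to 89.97 RPM in replicates 4 to 6. Its log2FC with the set term was 0.42 ± 0.09 (FDR 0.000788), and without it 0.34 ± 0.32 (FDR 0.545). At EPS 3h replicates 1 to 3 overlapped (103.4 to 146.1 against 135.8 to 156.7 RPM) and replicates 4 to 6 did not (58.31 to 69.08 against 78.88 to 85.61 RPM). The log2FC of *Tug1* KD at EPS 3h was 0.31 ± 0.09 with the set term (FDR 0.0152), against 0.28 ± 0.32 without it (FDR 0.665).

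*Myh4*, the gene of the fastest adult isoform, ranged from 149.2 through 186.4 to 245.2 RPM in Rest control and from 116.6 through 153.4 to 199.7 RPM in Rest *Tug1* KD. In replicates 1 to 3 the control libraries held 149.2 to 164.8 RPM and the *Tug1* KD libraries 116.6 to 128.0 RPM, and in replicates 4 to 6 they held 207.9 to 245.2 and 178.9 to 199.7 RPM. *Tug1* KD was thus the lower group in both sets, with no overlap inside either. The log2FC was -0.27 ± 0.23 without the set term (FDR 0.578) and -0.29 ± 0.09 with it (FDR 0.0218). After EPS the set-adjusted log2FC of *Myh4* was -0.25 ± 0.09 at EPS 0h (FDR 0.0365) and -0.37 ± 0.09 at EPS 3h (FDR 0.00254).

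*Myh8*, the perinatal gene, ranged from 329.8 through 409.0 to 625.2 RPM in EPS 3h control and from 234.3 through 293.4 to 454.1 RPM in EPS 3h *Tug1* KD. Both sets were apart, at 473.0 to 625.2 against 330.7 to 454.1 RPM in replicates 1 to 3 and at 329.8 to 345.0 against 234.3 to 256.2 RPM in replicates 4 to 6. The log2FC was -0.46 ± 0.24 without the set term (FDR 0.25) and -0.46 ± 0.08 with it (FDR 0.000107). At EPS 0h it was -0.27 ± 0.08 with the set term (FDR 0.0146), and at Rest -0.21 ± 0.08, which did not pass (FDR 0.0908).

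*Myh1* is the IIx gene and was the most abundant adult isoform here. It was called at Rest alone with the set term, and also at EPS 0h in replicates 4 to 6 fitted alone. It ranged from 1230.6 through 1500.5 to 1751.9 RPM in Rest control and from 1643.8 through 1785.1 to 2026.8 RPM in Rest *Tug1* KD, where 6 of 6 libraries lay above the control mean. The log2FC was 0.26 ± 0.09 without the set term (FDR 0.0726) and 0.27 ± 0.09 with it (FDR 0.0388). At EPS 3h *Myh1* differed by 0.01 ± 0.09 (FDR 0.944 with the set term).

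*Myh6*, the alpha cardiac gene, was at the lowest level of the 8 and had the widest ratio between the sets. It ranged from 3.442 through 11.05 to 22.38 RPM in Rest control and from 5.833 through 19.12 to 33.42 RPM in Rest *Tug1* KD. Replicates 1 to 3 did not overlap (15.85 to 22.38 against 27.45 to 33.42 RPM) and replicates 4 to 6 did (3.442 to 6.257 against 5.833 to 10.79 RPM). The log2FC was 0.70 ± 0.53 (FDR 0.518) without and 0.74 ± 0.18 (FDR 0.00354) with the set term, and neither EPS time point passed in either model.

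The other members gave no call in these comparisons, with or without the set term. *Myh3* (embryonic) differed by 0.15 ± 0.09 at Rest (FDR 0.323), 0.12 ± 0.09 at EPS 0h (FDR 0.364) and 0.03 ± 0.09 at EPS 3h (FDR 0.849) with the set term. *Myh2* (IIa) differed by 0.18 ± 0.19 and *Myh7b* by -0.29 ± 0.15 at Rest (FDR 0.594 and 0.187). The members whose *Tug1* KD and control libraries were apart in both sets, in the same direction, were *Myh1*, *Myh7* (higher) and *Myh4* (lower) at Rest, where this held for 13.8% of all genes, *Myh7* (higher) at EPS 0h (20.6%), and *Myh4* and *Myh8* (lower) at EPS 3h (8.9%).

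**Figure D3:**
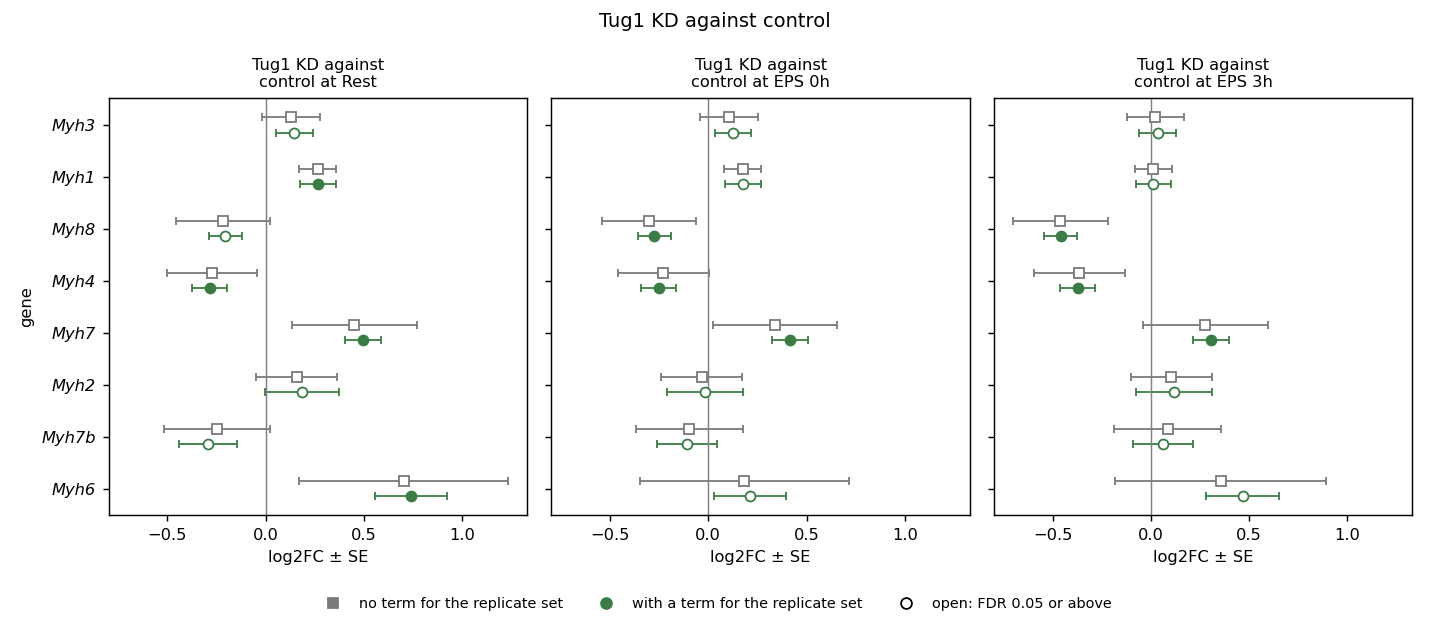
log2FC ± SE of *Tug1* KD against control for each MyHC gene at Rest, EPS 0h and EPS 3h, with grey squares for the model without and green circles for the model with a term for the replicate set, filled where the FDR was under 0.05. The estimates nearly coincide, and the error bars shrink with the term for most genes but hardly for *Myh1*. *Myh7* moved from 0.45 ± 0.32 to 0.49 ± 0.09 at Rest.

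The replicate sets were also fitted alone. Replicates 1 to 3 called *Myh6* (higher) at Rest, where 6.19% of all genes were called, no member at EPS 0h (6.72%), where 2 had an unadjusted p under 0.05 by edgeR, and *Myh4* and *Myh8* (lower) at EPS 3h (6.09%). Replicates 4 to 6 called *Myh1*, *Myh2*, *Myh7* (higher) and *Myh7b* (lower) at Rest (16.1% of all genes), *Myh1* and *Myh7* (higher) at EPS 0h (16.6%), and *Myh7* (higher), *Myh4* and *Myh8* (lower) at EPS 3h (11.2%). *Myh2* was the member whose response to *Tug1* KD at Rest stood furthest apart between the sets, with a log2FC of -0.07 ± 0.21 for replicates 1 to 3 against 0.58 ± 0.15 for replicates 4 to 6, but the difference of 0.65 ± 0.28 did not pass (FDR 0.236).

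Shares of the summed MyHC counts describe the makeup of the pool apart from its size. They are given as a description without a test, since the 8 shares of a library sum to 100% and are not independent. *Myh3* made up 65.4% of the MyHC counts in Rest control and *Myh1* 22.25% (n = 6). In all 3 comparisons of *Tug1* KD with control, the shares of *Myh8* and *Myh4* were lower and that of *Myh7* was higher, with no overlap inside either replicate set. Shares exist for the 8 members alone, so no figure over all genes can be set beside this. In RPM the same rule was met by 13.8% of all genes at Rest, 20.6% at EPS 0h and 8.9% at EPS 3h. At no time point did all of these 3 members meet it in RPM.

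The share of *Myh8* was 6.433% ± 0.8817 in Rest control and 5.058% ± 0.9381 in Rest *Tug1* KD (SD, n = 6). In replicates 1 to 3 it went from 7.141% to 7.286% down to 5.829% to 5.96%, and in replicates 4 to 6 from 5.289% to 5.835% down to 4.143% to 4.309%. The difference in percentage points was -1.375 at Rest, -1.564 at EPS 0h and -1.822 at EPS 3h. At EPS 3h the sets gave -1.886 points (replicates 1 to 3) and -1.757 points (replicates 4 to 6).

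The share of *Myh4* was 2.999% ± 1.247 in Rest control and 2.193% ± 0.8746 in Rest *Tug1* KD, a difference of -0.8064 points, followed by -0.7263 at EPS 0h and -0.7452 at EPS 3h. The share of *Myh7* was 1.44% ± 0.3136 in Rest control and 1.817% ± 0.3892 in Rest *Tug1* KD, a difference of 0.3772 points, followed by 0.3552 and 0.3697. Both genes are minor parts of the pool, and over all 12 libraries of a comparison the groups overlapped. They did not overlap inside either set, where for example *Myh7* was 1.109% to 1.204% in replicates 4 to 6 of Rest control and 1.401% to 1.555% in those of Rest *Tug1* KD. The same 3 genes were apart when counts were divided by transcript length before the shares were taken, with *Myh3* added (higher) at EPS 3h on the scale of the canonical transcript.

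**Figure D4:**
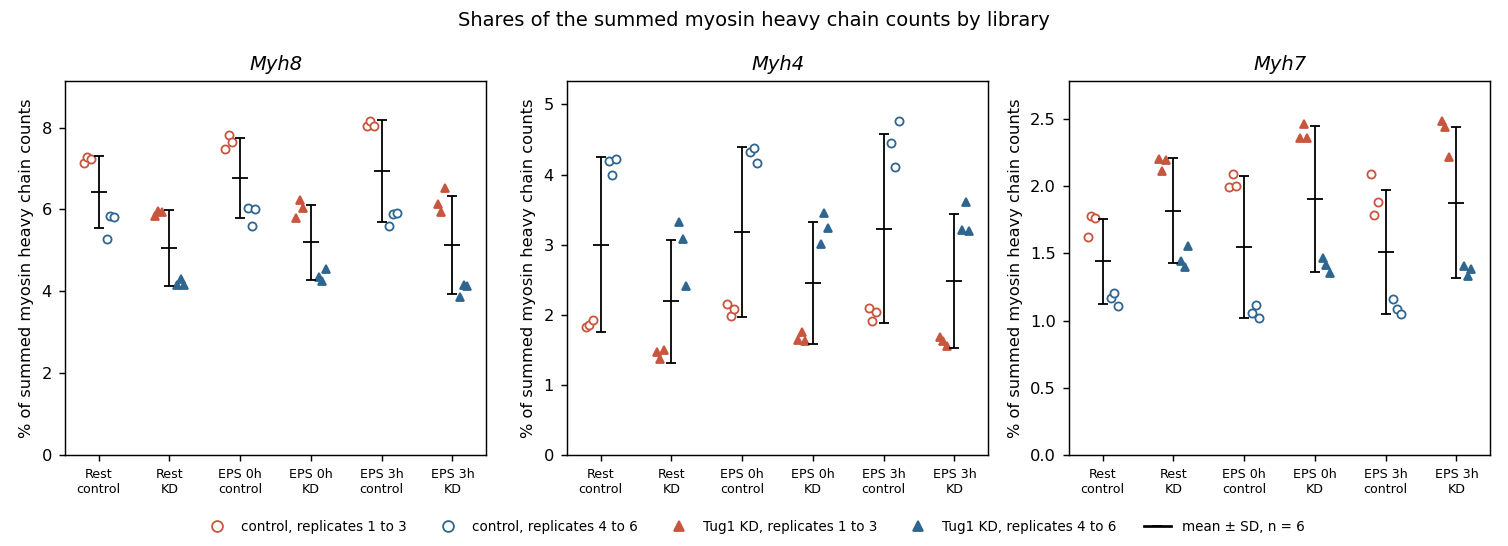
Share of the summed MyHC counts in percent for *Myh8*, *Myh4* and *Myh7* in every library by group, with circles for control, triangles for *Tug1* KD, red for replicates 1 to 3, blue for replicates 4 to 6 and bars for the mean ± SD (n = 6). Axes start at 0. Within each colour the *Tug1* KD points lie below the control points for *Myh8* and *Myh4* and above them for *Myh7*, at all 3 time points.

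EPS was compared with Rest to ask how contraction changed the heavy chains immediately and 3 h later. These comparisons share the Rest libraries of their arm. No separate Rest group was harvested for EPS 3h, so EPS and any difference in time in culture cannot be told apart there. In control myotubes 1 of 8 members changed at EPS 0h, where 38.9% of all genes did, and 1 of 8 at EPS 3h, where 52.0% did. In both it was *Myh7b*, and it fell. With the set term 2 of 8 were called at EPS 0h (48.1% of all genes), namely *Myh7b* and *Myh2*, and 1 of 8 at EPS 3h (59.9%). With the replicate block, *Myh7b* alone was called at EPS 0h (49.9% of all genes) and at EPS 3h (61.2%). The median log2FC of the 8 was -0.10 at EPS 0h and -0.09 at EPS 3h, beside -0.03 and -0.02 over all genes. These counts and medians were not tested against the background.

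*Myh7b*, the slow-tonic gene, ranged from 22.92 through 33.06 to 43.5 RPM in Rest control, from 14.36 through 17.3 to 26.78 RPM at EPS 0h and from 13.69 through 17.36 to 30.3 RPM at EPS 3h. All 6 libraries at each time point lay below the Rest mean, and the libraries of EPS and Rest did not overlap inside either set, as for 33.7% of all genes at EPS 0h and 38.1% at EPS 3h. The log2FC was -0.83 ± 0.27 at EPS 0h (FDR 0.014) and -0.71 ± 0.27 at EPS 3h (FDR 0.0262), and with the set term -0.81 ± 0.15 (FDR 2.95e-05) and -0.72 ± 0.15 (FDR 7.6e-05). At EPS 0h the fit of replicates 1 to 3 gave -0.92 ± 0.24 (FDR 0.00528) and the fit of replicates 4 to 6 gave -0.71 ± 0.15 (FDR 0.00146). Its share of the MyHC counts went from 0.4698% ± 0.02873 at Rest to 0.2987% ± 0.03545 at EPS 0h and 0.3121% ± 0.07042 at EPS 3h (SD, n = 6), and here all 6 EPS libraries lay below all 6 Rest libraries at both time points.

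In *Tug1* KD myotubes *Myh7b* ranged from 13.82 through 20.56 to 48.25 RPM at Rest and from 11.66 through 16.1 to 23.97 RPM at EPS 0h. The log2FC was -0.68 ± 0.27 at EPS 0h (FDR 0.0396) and -0.38 ± 0.27 at EPS 3h (FDR 0.245), and the EPS 3h value passed with the set term (-0.37 ± 0.15, FDR 0.0325). The libraries overlapped inside a set at both time points. The response did not differ detectably from that of control, by 0.15 ± 0.38 at EPS 0h and 0.34 ± 0.38 at EPS 3h (FDR 1.0 for both).

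Reads of *Myh7b* can overlap neighbours on the other strand, *Gss* (glutathione synthetase) at its start and *Trpc4ap* at its end, whose exons overlap those of *Myh7b* in the annotation. In the 3 control groups, in order of time, *Gss* averaged 113.7, 91.2 and 100.8 RPM, with a log2FC of -0.32 ± 0.10 at EPS 0h (FDR 0.0089), and *Trpc4ap* averaged 145.2, 127.8 and 125.9 RPM, with a log2FC of -0.18 ± 0.07 (FDR 0.0439). The library kit marked strand but the strand setting of the counting is not given in the sources used here, so the part of these genes in the *Myh7b* counts was not tested. The antisense transcript *Myhas*, across *Myh1* and *Myh4*, was at 0.3908 to 0.9956 RPM on average by group and 9430073C21Rik, across *Myh2*, at 2.039 to 4.007 RPM.

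*Myh2*, the IIa gene, gave unlike values in the sets after EPS. In replicates 1 to 3 of the control the Rest libraries held 73.61 to 91.37 RPM, those of EPS 0h 38.45 to 51.81 RPM and those of EPS 3h 32.02 to 67.01 RPM. In replicates 4 to 6 the ranges in the same order were 27.79 to 46.62, 37.78 to 42.57 and 37.04 to 48.91 RPM. Fitted alone, replicates 1 to 3 had a log2FC of -0.91 ± 0.21 at EPS 0h (FDR 0.00297), whereas replicates 4 to 6 had 0.13 ± 0.15 (FDR 0.557). The difference between the sets was 1.04 ± 0.28, which did not pass over all genes (FDR 0.102), and at EPS 3h it was 1.07 ± 0.28 (FDR 0.0756). Pooled, the log2FC at EPS 0h was -0.50 ± 0.21 (FDR 0.052), and with the set term -0.46 ± 0.19 (FDR 0.0462), a call that the replicate block did not make (-0.46 ± 0.20, FDR 0.0523).

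In *Tug1* KD myotubes 2 of 8 members fell at EPS 0h (45.6% of all genes changed), *Myh2* and *Myh7b*, and 2 of 8 fell at EPS 3h (52.1%), *Myh1* and *Myh2*. With the set term 3 of 8 fell at EPS 0h (55.4% of all genes) and 6 of 8 at EPS 3h (59.9%). With the replicate block at EPS 0h, 3 of 8 fell (56.9% of all genes), the members of the set-term fit. No member rose after EPS in any of these fits, and the median log2FC of the 8 without the set term was -0.22 at EPS 0h and -0.31 at EPS 3h, beside -0.03 and -0.04 over all genes.

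The *Myh2* level in *Tug1* KD ranged from 51.32 through 68.23 to 80.74 RPM at Rest, from 34.28 through 40.51 to 52.88 RPM at EPS 0h and from 34.34 through 49.59 to 57.37 RPM at EPS 3h. Its log2FC was -0.69 ± 0.21 at EPS 0h (FDR 0.00657) and -0.50 ± 0.21 at EPS 3h (FDR 0.0408). All 6 EPS libraries were below the Rest mean at each time point. At EPS 3h the log2FC of replicates 1 to 3 was -0.84 ± 0.21 and that of replicates 4 to 6 -0.11 ± 0.15, and the difference of 0.75 ± 0.28 did not pass (FDR 0.21).

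*Myh1* in *Tug1* KD ranged from 1643.8 through 1785.1 to 2026.8 RPM at Rest and from 1149.2 through 1490.4 to 1588.8 RPM at EPS 3h. In RPM, among the comparisons of *Tug1* KD with control and of EPS with Rest, only here did all 12 libraries of a member separate the groups. How many of all genes did so was not counted, while 37.9% were apart inside both sets in this comparison. The log2FC of *Myh1* was -0.32 ± 0.09 (FDR 0.0045). In control, *Myh1* gave -0.07 ± 0.09 at EPS 3h (FDR 0.56), and the difference between *Tug1* KD and control was -0.25 ± 0.13 (unadjusted p = 0.0673 by edgeR, FDR 1.0). In control, the EPS 3h libraries of *Myh1* all lay below those of Rest within replicates 1 to 3 and all above them within replicates 4 to 6, and the difference between the sets of 0.40 ± 0.14 did not pass (FDR 0.212).

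At EPS 3h in *Tug1* KD, *Myh3*, *Myh7*, *Myh7b* and *Myh8* joined *Myh1* and *Myh2* among the genes that fell with the set term, by 0.26 ± 0.09 for *Myh3* (FDR 0.0145), 0.26 ± 0.09 for *Myh7* (FDR 0.0141) and 0.27 ± 0.08 for *Myh8* (FDR 0.00638) on the log2 scale. *Myh4* gave -0.09 ± 0.09 (FDR 0.403). The fit of replicates 1 to 3 called 5 members lower (53.2% of all genes were called) and that of replicates 4 to 6 called 0 (43.9%), with 0 at an unadjusted p under 0.05 by edgeR, and no member's difference between the sets passed. At EPS 0h in *Tug1* KD the same fits called 5 (54.2%) and 0 (28.4%), the latter with 1 member at an unadjusted p under 0.05 by edgeR. In control, replicates 1 to 3 called 3 members at EPS 0h (40.8%) and 3 at EPS 3h (48.9%), while replicates 4 to 6 called 1 (29.8%) and 1 (48.7%), all of them lower. In *Tug1* KD at EPS 3h, the libraries of EPS and Rest were apart in both sets for *Myh1* and *Myh7* (2 of 8, against 37.9% of all genes). At EPS 0h in *Tug1* KD this held for 0 of 8 (30.1%).

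**Figure D5:**
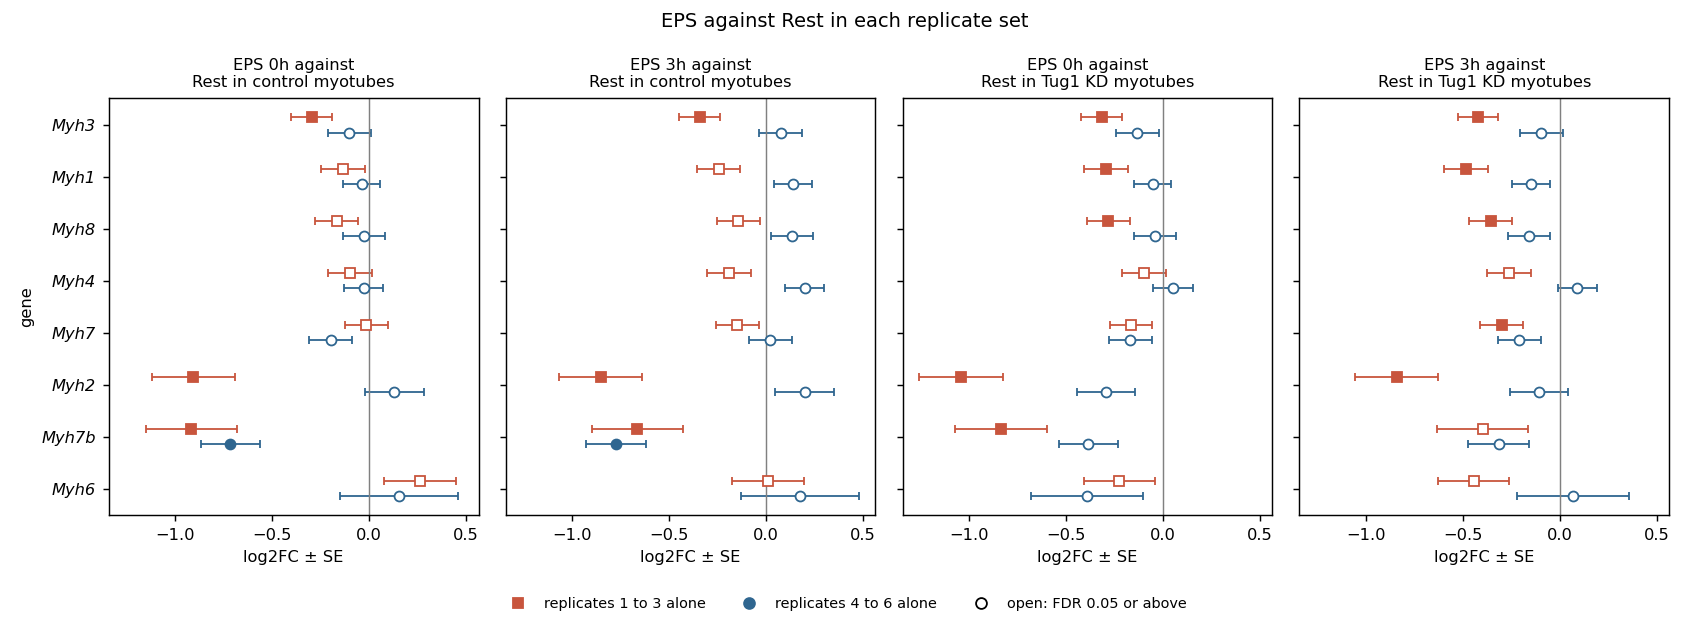
log2FC ± SE of EPS against Rest for each MyHC gene in control and *Tug1* KD myotubes, fitted to replicates 1 to 3 alone (red squares) and to replicates 4 to 6 alone (blue circles), filled where the FDR was under 0.05. *Myh7b* in control fell in both sets at both time points. In control at EPS 0h, *Myh2* stood at -0.91 ± 0.21 (red) and 0.13 ± 0.15 (blue).

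Between EPS 0h and EPS 3h, in the model without the set term, 0 of 8 members changed in control (16.6% of all genes) and 0 of 8 in *Tug1* KD (15.7%), and by edgeR 0 members had an unadjusted p under 0.05 in either, with 0 calls by DESeq2 and limma-voom. For the difference of the EPS response between *Tug1* KD and control, 0 of 8 members passed at EPS 0h (0.0% of all genes) and 0 of 8 at EPS 3h (0.00715%), with 0 members at an unadjusted p under 0.05 by edgeR and 0 calls by DESeq2 and limma-voom. The SE of that difference was 0.13 for *Myh1* and 0.75 for *Myh6* without the set term. With it, *Myh8* gave -0.25 ± 0.12 at EPS 3h (unadjusted p = 0.0397 by edgeR, FDR 0.984).

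The partners of the heavy chains were described from fixed lists, in the model without the set term unless stated. Of the thick filament and M-band partners (11 of 13 tested), 5 rose and 1 fell with *Tug1* KD at each time point (10.0%, 14.3% and 11.5% of all genes changed in order of time), with a median log2FC at Rest of 0.25 against -0.03 over all genes. *Myom1* (myomesin, an M-band crosslinker of myosin) rose from 60.9 ± 12.25 to 160.3 ± 7.99 RPM at Rest (log2FC 1.40 ± 0.14, FDR 3.45e-09). *Myom2*, its relative of fast fibres, rose from 581.8 to 1050.6 RPM (0.85 ± 0.09, FDR 4.42e-08). *Mybpc2*, the fast myosin-binding protein C, fell from 111.7 ± 5.007 to 51.12 ± 1.862 RPM (-1.13 ± 0.09, FDR 6.85e-11). The size of each of these log2FC values was above that of any of the 8 heavy chains at Rest in the same model. *Trim55*, a ubiquitin ligase of the M-band, also rose at Rest (0.91 ± 0.18, FDR 0.000714).

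After EPS in control 3 of the 11 fell and 0 rose at either time point, where 38.9% and 52.0% of all genes changed, among them *Trim63* (MuRF1, a ligase that targets myosin) by 0.46 ± 0.11 at EPS 0h (FDR 0.000863) and by 0.64 ± 0.11 at EPS 3h (FDR 6.2e-06) on the log2 scale. The ligase *Trim54* fell by 0.81 ± 0.19 at EPS 0h (FDR 0.000696). In *Tug1* KD 4 fell and 1 rose at EPS 0h (45.6% of all genes changed), and 3 fell and 2 rose at EPS 3h (52.1%), with *Ttn* (titin) rising by 0.87 ± 0.26 at EPS 0h (FDR 0.00608). The set term raised the counts in control to 5 lower and 1 higher at EPS 0h and to 4 lower and 1 higher at EPS 3h, where *Myom1* rose by 0.23 ± 0.09 (FDR 0.0185). It also raised the share of all genes that changed, to 48.1% at EPS 0h and 59.9% at EPS 3h.

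Of the myosin chaperones and assembly factors, all 10 tested, 5 rose and 1 fell at EPS 0h in control and 7 rose and 2 fell at EPS 3h, where 38.9% and 52.0% of all genes changed, with median log2FC values of 0.40 and 0.86 beside -0.03 and -0.02 over all genes. *Hsp90aa1*, the chaperone that folds the myosin head, averaged 2624.4 ± 657.9 RPM in Rest control and 10289.1 ± 3292.5 RPM in EPS 3h control (log2FC 1.97 ± 0.19, FDR 1.28e-10). *Hspb1* rose by 1.55 ± 0.13 (FDR 4.58e-12) and *Dnajb4* by 1.52 ± 0.15 (FDR 2.04e-10). In *Tug1* KD 7 rose and 1 fell at each time point (45.6% and 52.1% of all genes). With *Tug1* KD 2 of the 10 were lower at EPS 0h (14.3% of all genes changed) and at EPS 3h (11.5%), and 0 of 10 changed at Rest (10.0%). The 2 were *Unc45a* (a myosin co-chaperone), by 0.42 ± 0.11 at EPS 0h (FDR 0.0048), and *Apobec2*, by 0.41 ± 0.13 (FDR 0.0277). The set term added *Unc45a* at Rest (-0.28 ± 0.08, FDR 0.0181) and *Dnajb4*, which was higher at EPS 0h (0.37 ± 0.12, FDR 0.0223) and EPS 3h (0.39 ± 0.12, FDR 0.0192).

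Of the myosin light chains (9 of 11 tested), *Myl12b*, a regulatory light chain of nonmuscle myosin, rose most, from 4.224 ± 0.8939 RPM in Rest control to 14.09 ± 2.854 RPM in EPS 3h control (log2FC 1.74 ± 0.17, FDR 1.08e-10). It was also higher in *Tug1* KD at EPS 0h (0.49 ± 0.16, FDR 0.0337) and EPS 3h (0.59 ± 0.16, FDR 0.0112). Its sequence is nearly that of *Myl12a*, so counts of the pair are uncertain. *Myl6* fell at EPS 0h in control (-0.41 ± 0.16, FDR 0.0405). *Myl12a* also rose at EPS 3h in control with the set term (0.21 ± 0.08, FDR 0.0284). With *Tug1* KD 0 light chains changed at Rest (10.0% of all genes), where their median was 0.15. At EPS 0h 1 changed (14.3% of all genes), and at EPS 3h 1 (11.5%).

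Of the troponins and tropomyosins (10 of 11 tested), *Tnni3*, the cardiac troponin I, was lower in *Tug1* KD at each time point (-0.81 ± 0.27, FDR 0.0472, at Rest) at a level of 3.893 RPM in Rest control. The median of the 10 was 0.06 in that comparison at Rest. EPS changed 0 of the 10 in control, and in *Tug1* KD it lowered *Tnnt3* and *Tnnt1* at EPS 0h (-0.48 ± 0.16 and -0.35 ± 0.14, FDR 0.013 and 0.0394) and 0 of them at EPS 3h. The set term called 1 of the 10 lower at EPS 0h in control (48.1% of all genes), *Tnnt2* (-0.24 ± 0.10, FDR 0.0468), and 5 lower at EPS 0h in *Tug1* KD (55.4% of all genes).

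Among the other myosin heavy chains (4 of 6 tested), the smooth muscle gene *Myh11* averaged 0.5814 ± 0.3189 RPM in Rest control and 3.819 ± 0.8278 RPM in EPS 3h control (log2FC 2.70 ± 0.27, FDR 2.42e-10), and rose by 3.29 ± 0.28 in *Tug1* KD (FDR 2.87e-12). The nonmuscle gene *Myh14* fell from a mean of 11.01 to 5.843 RPM at EPS 0h in control (log2FC -0.91 ± 0.17, FDR 6.64e-05). *Myh10*, another nonmuscle gene, was higher in *Tug1* KD at EPS 0h (0.33 ± 0.11, FDR 0.0315). Without the set term, none of the 4 changed with *Tug1* KD at Rest (median -0.10, 10.0% of all genes changed) or EPS 3h (median 0.20, 11.5%). With the set term *Myh10* was higher at EPS 3h as well (0.23 ± 0.08, FDR 0.0418), where 18.7% of all genes changed.

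Of the regulators of fibre type (25 of 27 tested), 3 rose and 3 fell with *Tug1* KD at Rest, 6 rose and 3 fell at EPS 0h, and 4 rose and 2 fell at EPS 3h, with medians of 0.05, 0.10 and 0.04, where 10.0%, 14.3% and 11.5% of all genes changed. *Mef2c*, a transcription factor of muscle genes, rose from 94.76 ± 23.4 to 199.2 ± 32.66 RPM at Rest (1.07 ± 0.22, FDR 0.000796). *Ppp3ca*, the catalytic subunit of calcineurin, rose from 82.46 to 118.9 RPM (0.53 ± 0.08, FDR 2.72e-05), and *Rcan1*, an inhibitor of calcineurin, fell from 165.0 to 109.2 RPM (-0.59 ± 0.13, FDR 0.00163). *Myf6*, a myogenic factor of late differentiation, fell from 2.126 to 0.5883 RPM (-1.86 ± 0.38, FDR 0.000723).

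After EPS in control 9 regulators were higher and 4 lower at EPS 0h and 9 higher and 5 lower at EPS 3h, with medians of 0.18 and 0.30, where 38.9% and 52.0% of all genes changed. *Nfatc4*, a target of calcineurin, fell from 13.35 to 3.621 RPM at EPS 3h (log2FC -1.87 ± 0.24, FDR 5.88e-08). In *Tug1* KD 11 rose and 4 fell at EPS 0h, and 9 rose and 7 fell at EPS 3h (45.6% and 52.1% of all genes).

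Markers of the cell types that the wells could hold were summed per library. All 10 myotube markers were detected, from 8774.6 to 13226.2 RPM in sum over all libraries. The 9 markers of cycling myoblasts summed to 307.5 to 381.0 RPM in Rest control and to 245.4 to 283.8 RPM in Rest *Tug1* KD, with no overlap. Of the 9 genes 1 (*Id1*) passed the test there, where 10.0% of all genes did. In EPS 3h control they summed to 181.3 to 228.4 RPM. Their part in the heavy chain differences was not tested. Fibroblast markers (4 of 5 at 1 RPM or more on average) summed to 1447.8 to 3021.8 RPM, nearly all of it *Col3a1*, while *Dcn* averaged 132.5, *Pdgfra* 9.978, *Dpt* 1.042 and *Lum* 0.8038 RPM, and smooth muscle markers to 1423.0 to 2495.9 RPM, nearly all *Acta2*, while *Tagln* averaged 0.6342 RPM. The 5 cardiomyocyte markers summed to 8.032 to 11.51 RPM in Rest control and 5.057 to 7.628 RPM in Rest *Tug1* KD, nearly all *Nppb* and *Tnni3* (3.913 and 3.082 RPM on average over all libraries), while *Nppa*, *Myl7* and *Ryr2* averaged 0.125, 0.1521 and 0.1605 RPM. Endothelial markers summed to 0.5232 to 1.062 RPM in Rest control and 2.94 to 9.134 RPM in EPS 3h control, and leukocyte markers to at most 5.439 RPM.

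Between the members, levels over the 36 libraries followed the replicate sets, as a description with no test, since the libraries share groups and sets. The log2 RPM of *Myh6* and *Myh7*, neighbours on chromosome 14, had a Pearson r of 0.9446, which was 0.4609 after centring within group and set. *Myh4* and *Myh7* had an r of -0.8458, which was 0.5496 after centring, and *Myh3* and *Myh8* 0.769 and 0.9011.

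The tested genes most like each member over the 36 libraries were *Terf2ip* for *Myh1* (r = 0.7657), *Atp5k* for *Myh2* (0.8939), *Myh7* for *Myh3* (0.8771), *C1ra* for *Myh4* (0.9482), *Atp6v1c2* for *Myh7* (0.9489), *Doc2g* for *Myh7b* (0.9172) and *Fsd2* for *Myh8* (0.9254), with *Myh7* again for *Myh6*. After centring within group and set the value for *Atp5k* and *Myh2* was 0.8505, and that for *Atp6v1c2* and *Myh7* was 0.09276. The similarity of *Myh2* to *Atp5k*, a subunit of ATP synthase, and to *Ndufa3*, a subunit of complex I (0.8546, and 0.8632 after centring), was thus also seen inside groups and sets.

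Transcripts of the 8 genes are alike in sequence. Windows of the members' annotated transcripts were compared with those of the other members and of the 6 other myosin heavy chain genes, and with no further genes. Of the 150-base windows, the share also found in another of these genes was highest between *Myh7* and *Myh6* (2.83% of the windows of *Myh7*) and 0.0% for *Myh7b*. Of the 50-base windows it was highest for *Myh2* (18.3%) and *Myh1* (16.6%), most often shared with each other, and again 0.0% for *Myh7b*. How the counting treated reads that match more than a single gene is not given in the sources used here.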

How the data were processed

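Gene counts were deposited by the authors as a matrix of 55416 genes and 36 libraries and as a file per library, which were identical (36 of 36). Per the labels, directional poly-A libraries were sequenced with 150-bp reads, and the submitters' processing notes name FastQC 0.11.7, fastp 0.14.1, STAR 2.5 and GRCm39. The tool that counted the reads and its strand setting are not given in the sources used here. Libraries held 17005079 to 24181167 counts, and the 1492 genes without a name held 0.0327% of them. No libraries of a group agreed within sampling noise (lowest chi-square per degree of freedom 3.984).

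The 13995 genes that reached 1 RPM in 12 or more of the 36 libraries were fitted together in edgeR 4.0.16 (R 4.3.3) with TMM factors, the 6 groups and the quasi-likelihood test. The SE was derived from the log2FC and the F statistic, and p-values were adjusted by Benjamini-Hochberg over all 13995 genes. Groups came from the labels. Replicates were wells, so p-values measure the spread between wells, part of which may be technical. The alternatives were DESeq2 1.42.0, limma-voom (limma 3.58.1), library size only, upper quartile factors, no filter, a stricter filter (10 counts in 6 libraries), the compared groups alone, a replicate block, a term for the replicate set, and each set alone. The fit of the difference between sets, levels per kb of canonical transcript and the overlap of libraries within sets were chosen after seeing the data.

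A rule on replicate numbers asked whether, for all 6 numbers, the deviations of same-numbered libraries from their group means correlated above 0.1. It was met for *Tug1* KD against control at EPS 0h (lowest r 0.6257) and EPS 3h (0.2171), for EPS against Rest in control (0.2277 and 0.1274) and for EPS 0h against Rest in *Tug1* KD (0.1646), but not for *Tug1* KD against control at Rest (-0.09617) or EPS 3h against Rest in *Tug1* KD (0.07244). The group means were taken over both replicate sets, so libraries of the same set can correlate without being pairs. Libraries of unlike number were not compared, so the rule cannot show that the numbers pair the wells.

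The members and lists were chosen with earlier results of these data known. The text names all 8 members, *Tug1*, genes that overlap a member, up to 3 best correlates, on log2(RPM + 0.5), of each member with a mean of at least 10 RPM, and up to 4 genes of each list by FDR, of which some are not reported here. The edgeR, limma-voom and DESeq2 fits without a set or replicate term were run on simulated counts that held no shift between replicate sets. The fits with such a term and those of each set alone were not checked in this way. Promoter windows were the 250 bases before each RefSeq start.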

Additional observations from a re-analysis of the deposited data

Results flagged for a closer look

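The share of *Myh7b* in the summed MyHC counts of EPS 0h control had a library far from the others. The highest of the 6 libraries was at 0.3657%, and its gap to the next library was 0.6729 of the range of the group, above Dixon's 95% critical value for a group of this size. It was the only such library in 96 checks of a member in a group, and chance flags about 1 in 20 groups. The share was nevertheless below all 6 Rest control libraries.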

How the results depend on the processing

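The count of members called in *Tug1* KD against control depended on how the replicate set was treated. At Rest it was 0, but 1 with DESeq2, 4 with the replicate block, 4 with the set term, 1 in the fit of replicates 1 to 3 and 4 in that of replicates 4 to 6. At EPS 0h it was 0, but 3 with the replicate block, 3 with the set term and 2 in replicates 4 to 6, and at EPS 3h 0, but 3, 3, 2 (replicates 1 to 3) and 3 (replicates 4 to 6). For EPS against Rest in control, EPS 0h called 1 member, but 2 with DESeq2, with library size only, with upper quartile factors, with the stricter filter and with the set term, and 3 in replicates 1 to 3. EPS 3h called 1, but 4 with library size only, 2 with upper quartile factors, 2 with the stricter filter and 3 in replicates 1 to 3. In *Tug1* KD, EPS 0h called 2, but 1 with limma-voom, 1 without a filter, 3 with the replicate block, 3 with the set term, 5 (replicates 1 to 3) and 0 (replicates 4 to 6), and EPS 3h called 2, but 6 with the replicate block, 6 with the set term, 5 and 0. The log2FC of *Myh2* at EPS 0h against Rest in control reversed to 0.13 in replicates 4 to 6. Values of other members that were not called also changed sign between fits, and at EPS 3h in control 2 of 8 were above 0 without the set term and 7 of 8 in replicates 4 to 6. The causes were not tested. The replicate block gave the calls of the set term for EPS 0h in *Tug1* KD and for *Tug1* KD at EPS 0h and EPS 3h, and changed no call of EPS in control relative to the fit without a term. For *Tug1* KD against control at Rest and for EPS 3h in *Tug1* KD the rule on replicate numbers was not met. With library size only, the median log2FC of all genes at EPS 3h shifted by -0.1679 in control and -0.1641 in *Tug1* KD. *Myh7b* was called at EPS 0h and EPS 3h in control under 11 of 11 alternatives.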
